A study of Mus musculus with 2031 samples.

Results

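AST1 is 1 of 5 astrocyte groups (AST1 to AST5) that the study defined in the adult mouse brain. Its members are the cells that the study's own list of single cells assigns to AST1: 657 of 1781 typed astrocytes (36.9%) and of 2030 cells in all. The other 1124 typed astrocytes (AST2 to AST5) of the same suspensions served as the comparison. All cells came from untreated C57/Bl6 mice (C57BL/6J in the study's methods) at postnatal day 56. The tissue was digested with papain, and cells that bound the ACSA-2 antibody against ATP1B2 but not an antibody against the oligodendrocyte antigen O1 were sorted with 1 cell per well. The suspensions cortex 1 and cortex 2 each came from 1 animal, the pair being littermates, and hippocampus 1 and hippocampus 2 were each pooled from 4 littermates of another litter. Region was thus confounded with litter and with pooling, and cannot be told apart from them. AST1 held 57 cells of cortex 1, 55 of cortex 2 and 545 of the hippocampal suspensions, so that 83% of its cells were hippocampal.

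Astrocytes take up glutamate and potassium, cover blood vessels with their endfeet and release lipoproteins, protease inhibitors and peptide precursors. Of the 5 genes that mark AST1, Gfap encodes the intermediate filament of fibrous and reactive astrocytes, Agt the precursor of angiotensin peptides, and Hsd11b1 the enzyme that regenerates active glucocorticoid from its inert form. Fam213a encodes a peroxiredoxin-like protein and Id3 a target of bone morphogenetic protein (BMP) signaling that blocks basic helix-loop-helix transcription factors.

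Gene counts per AST1 cell ran from 600758 to 3238215, with a median of 1431483 against 1500462 in the other astrocytes. Counts were summed over the AST1 cells and over the other astrocytes of each suspension, which gave sums of 77349813 to 697952748 counts. Levels are CPM of these sums with TMM scaling. A log2 fold change is that of AST1 over the other astrocytes of the same suspension, from the edgeR fit with suspension as a block. Its ± is a standard error taken from the F statistic of that fit, in which variability is moderated across genes. It is not the spread of the 4 suspension ratios of the gene. Genes with an adjusted p (Benjamini-Hochberg, 6482 genes) under 0.05 are termed called. The groups had been found by clustering these same counts, so a call gives the size of a difference against the spread between suspensions and is no independent evidence for it. For the same reason it is no test of AST1 as a group.

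All 5 markers were higher in AST1 than in the other astrocytes in 4 of 4 suspensions, and no marker was called in the test of a difference between the regions. Hsd11b1 (chr1:193221634-193264075, GRCm38) was at 1035 and 844.4 CPM in AST1 of the cortical suspensions and at 1741 and 2051 CPM in the hippocampal ones, against 538.6, 491.3, 525.9 and 587.6 CPM in the other astrocytes. The sums of AST1 and of the others did not overlap, and Hsd11b1 was called (log2 fold change 1.31 ± 0.19). Single cells of cortex 2 differed little, with a count in 61.8% of AST1 cells and 59.5% of the others. The medians over these cells were 271.3 and 287.2 CPM. In cortex 1, hippocampus 1 and hippocampus 2 both the share and the median were higher in AST1. Id3 (chr4:136143497-136145755) was at 1099, 1341, 912.6 and 770.1 CPM in AST1 of cortex 1, cortex 2, hippocampus 1 and hippocampus 2, against 571.9, 490.6, 380.7 and 201.97 CPM. It was called as well (1.40 ± 0.16), and its level in the lowest AST1 sum was above that in the highest sum of the others. Fam213a (chr14:40993740-41013788) was at 737.4, 689.8, 976.2 and 978.8 CPM against 409.3, 385.4, 610.2 and 522.7 CPM and was called (0.82 ± 0.10). On the scale of single-subtype sums it was at 971.6 ± 183.8 CPM in AST5 (SD, n = 3) and 907.03 ± 167.8 CPM in AST1 (SD, n = 4), so it did not set AST1 above AST5.

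The best-known AST1 marker genes, Gfap and Agt, were not called. The study also mapped AST1 in tissue sections by in situ hybridization of both genes with Slc1a3, which these sums do not address. Gfap (chr11:102887336-102900912) was at 250.9 and 484.5 CPM in cortical AST1 against 154.6 and 147.4 CPM, and at 1329 and 1211 CPM in hippocampal AST1 against 1138 and 1049 CPM. Its log2 ratio was 0.22 and 0.21 in the hippocampal suspensions, and the fitted value was 0.70 ± 0.25. The other hippocampal astrocytes were a mixture for Gfap. On the scale of single-subtype sums AST4 was at 2267 and 2162 CPM there, above AST1 at 1433 and 1299 CPM. AST3 was at 676.6 and 573.4 CPM and AST2 at 232.8 and 758.7 CPM, below AST1. Agt (chr8:124556534-124569706) was at 535.6 and 504.6 CPM against 255.1 and 202.6 CPM in cortex, and at 1038 and 1064 CPM against 891.1 and 715.8 CPM in hippocampus (0.79 ± 0.18). For both genes the sums of the other hippocampal astrocytes were above those of cortical AST1, so the sums overlapped across regions. Within a suspension each group had a single sum, so overlap there cannot be judged from the sums. On the scale of single-subtype sums hippocampal AST3 was at 1530 and 1234 CPM for Agt, above AST1 at 1118 and 1142 CPM. Hippocampal AST2 and AST4 were below AST1 for Agt.

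**Figure D1:**
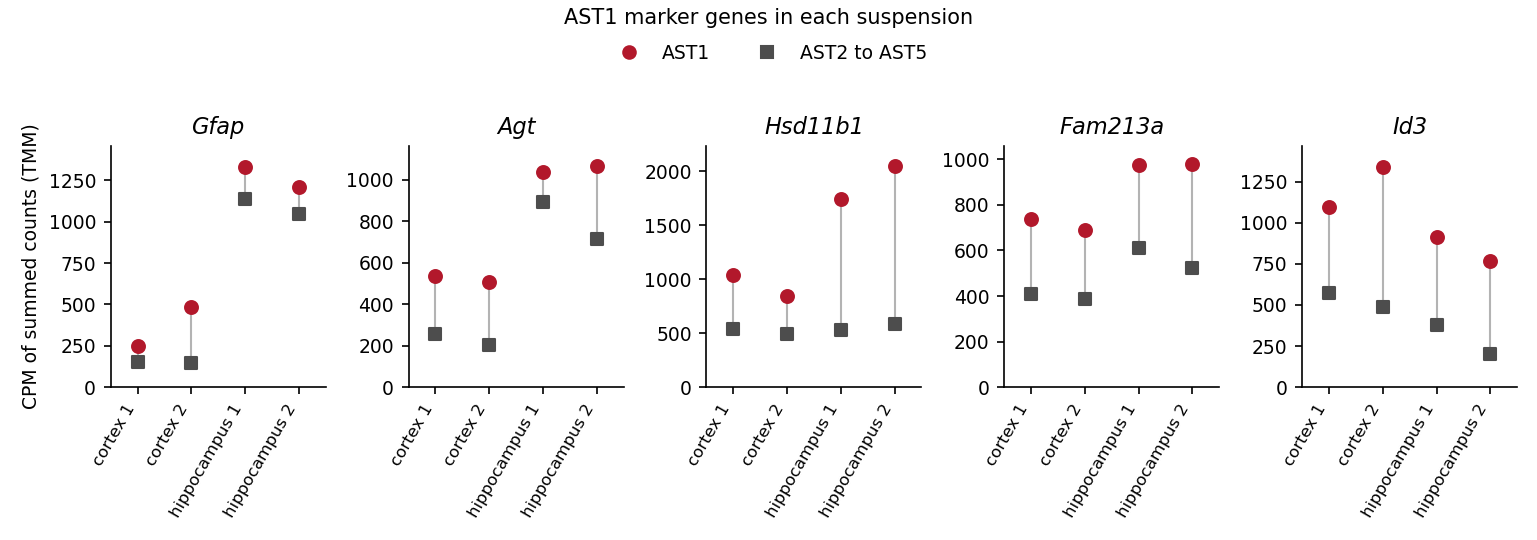
CPM of summed counts (vertical axis, TMM scaling, from 0) of the 5 AST1 markers in each of the 4 suspensions (horizontal axis). Red circles are AST1 and dark squares the AST2 to AST5 cells of the same suspension; every circle lies above its square, with log2 ratios for Gfap of 0.22 and 0.21 in hippocampus.

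Within single cells the markers were far from universal. In cortex, 24.6% of AST1 cells of suspension 1 and 32.7% of suspension 2 had a Gfap count, against 23.8% and 20.9% of the other astrocytes. In hippocampus the shares were 72.7% and 75.2% against 65.6% and 64.3%. Gfap and Agt were counted together in 12.3%, 16.4%, 48% and 52.6% of AST1 cells of cortex 1, cortex 2, hippocampus 1 and hippocampus 2, and in 10.6%, 9.01%, 37.7% and 35.1% of the other astrocytes. The difference was 9.19 ± 6.59 percentage points (SD, n = 4 suspensions) and is a description, since both genes were available to the clustering. Cortical AST3 cells carried both genes in 17.5% and 19.9%, at or above the AST1 share. Hippocampal AST3 cells carried both in 47.7% and 43.9%, beside 48% and 52.6% in AST1. In mural cells, which should lack both genes, no cell held both and 0.746% held a Gfap count, at a median of 1216970 gene counts per cell, so the astrocyte shares were above background. Id3 was no astrocyte-restricted marker, with a count in 39.6% of mural cells. No doublet caller was run, since each well received 1 sorted cell.

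At least 4 of the 5 markers were counted in 28.1% and 32.7% of cortical AST1 cells and in 59.8% and 62.8% of hippocampal ones. The other astrocytes gave 19.6% and 16.2% in cortex and 33.6% and 31.2% in hippocampus. Cortical AST3 cells alone gave 31.2% and 31.1%, beside the cortical AST1 shares, and cortical AST2 cells 12.9% and 8.83%. Over all suspensions 21.5% of AST1 cells had all 5 markers, 0.457% had none of them, and 93 cells (14.2%) had neither Gfap nor Agt. These pooled shares are mostly hippocampal. Neither Gfap nor Agt was counted in 45.6% and 40% of cortical AST1 cells and in 8.12% and 8.39% of hippocampal ones. All 5 markers were counted in 3.51% and 3.64% of cortical AST1 cells, beside 6.49% and 8.61% of cortical AST3 cells. In hippocampus all 5 were counted in 22.1% and 28.1% of AST1 cells and in 9.23% and 7.32% of AST3 cells. After each cell was thinned to 50000 gene counts, the share of AST1 cells with both Gfap and Agt was 40.6% over all suspensions, against 44.1% unthinned.

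**Figure D2:**
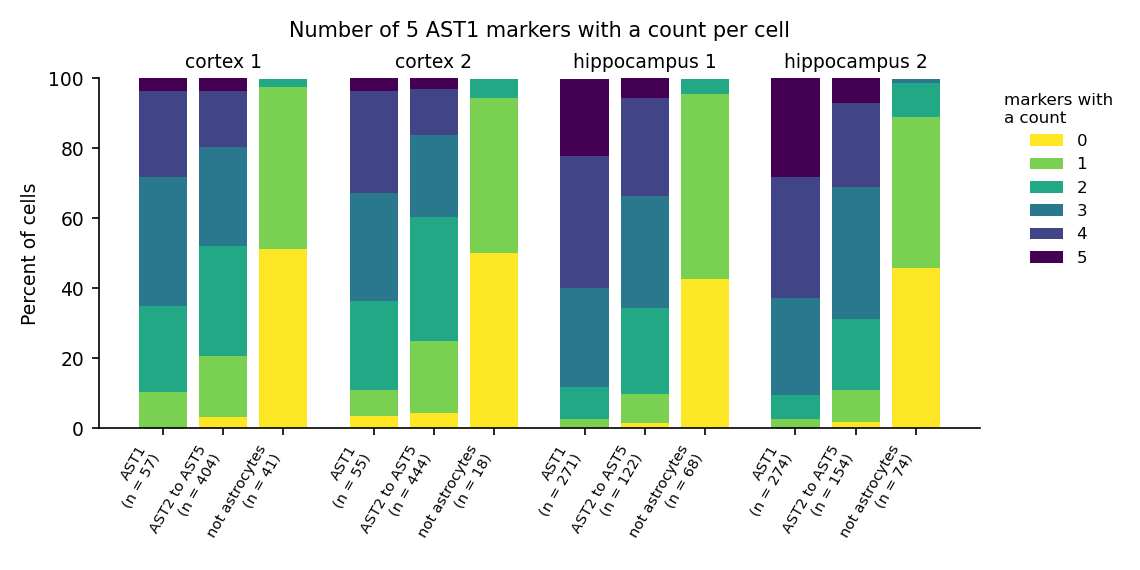
Percent of cells (vertical axis) by the number of the 5 AST1 markers with at least 1 count, for AST1, AST2 to AST5 and cells that are not astrocytes in each suspension; n is the number of cells. All 5 markers were counted in 22.1% and 28.1% of hippocampal AST1 cells and in 3.51% and 3.64% of cortical ones.

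The comparison within suspensions asks what sets AST1 apart from the other astrocytes of the same suspension. The make-up of these others differed between the regions. In cortex 1 and cortex 2 most of them were AST2, with 2 and 0 AST4 cells. In hippocampus 1 and hippocampus 2 they held 10 and 22 AST2 cells and 41 and 48 AST4 cells. Ratios of the 2 regions thus rest on different comparison groups. The comparison called 12 genes higher in AST1 (0.185% of 6482 tested) and 2 lower (0.0309%). The genes higher included Cst3, Apoe, Clu, Cpe, Sparcl1, Gpm6a, Selenop, Naaa, Hsd11b1, Id3 and Fam213a, and the genes lower were Igfbp2 and Ccn1. Being higher in 4 of 4 suspensions was common, at 10.4% of all genes tested, and being lower in 4 of 4 held for 8.53%. The median log2 fold change over all genes tested was -0.02. The number of calls changed when a suspension was left out. Without hippocampus 1 or without hippocampus 2 there were 2 calls, without cortex 1 there were 5, and in none of these 3 fits was a gene called lower. Without cortex 2 there were 13 calls, 6 higher and 7 lower. Each of these fits holds fewer sums, so fewer calls do not show that a difference rested on the suspension left out. DESeq2 called 42 genes higher and 44 lower, and limma on the mean of log values per cell called 5 higher and 15 lower.

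Cst3, Apoe, Clu, Cpe and Sparcl1 were among the genes called higher. Cst3, which encodes the cysteine protease inhibitor cystatin C, was at 18342, 18821, 20852 and 21291 CPM in AST1 against 9811, 9613, 11026 and 10729 CPM. Its log2 ratio lay between 0.90 and 0.99 in all 4 suspensions, and the mean over cells was higher in AST1 on 32 of 32 plates. Of 13 alternative settings, Cst3 was called under 13, Apoe under 11, Clu under 9, Cpe under 8 and Sparcl1 under 4. Of the other genes called higher, Id3 was called under 9, Hsd11b1 under 8, Naaa and Fam213a under 6, Gpm6a under 5 and Selenop under 4. Over these settings the value of Id3 ran from 1.22 to 2.24, of Hsd11b1 from 1.06 to 2.64 and of Naaa from 0.71 to 2.17. Fam213a ran from 0.28 to 1.12, Gpm6a from 0.43 to 0.54 and Selenop from 0.29 to 1.39. Apoe, the main apolipoprotein of brain lipoproteins, was at 41155 to 48222 CPM in AST1 and at 26634 to 31508 CPM in the others (0.67 ± 0.05). Clu, which encodes clusterin, was at 18897 to 23609 CPM against 10517 to 13743 CPM (0.86 ± 0.10). Cst3, Apoe and Clu did not overlap between AST1 and the rest. The share of all tested genes without overlap is not given, so a lack of overlap is a description only, here and for other genes. Cpe, the carboxypeptidase that trims peptide precursors, was higher by 0.69 ± 0.07, and Sparcl1, a matricellular protein known to promote synapse formation, by 0.54 ± 0.07. On the scale of single-subtype sums Sparcl1 was at 11428 ± 475.8 CPM in AST1, 7437 ± 1615 CPM in AST2 and 10009 ± 1524 CPM in AST3 (SD, n = 4 each). It was at 4793 ± 525.3 CPM in AST4 (SD, n = 2) and 7526 ± 2449 CPM in AST5 (SD, n = 3). With the other subtypes weighted equally instead of by cell number, the log2 fold change of Cpe was -0.02, and the sums of 8, 10 and 6 AST5 cells (cortex 1, cortex 2 and hippocampus 1) held 13877 ± 2249 CPM of Cpe (SD, n = 3), above the 9089 ± 1186 CPM of AST1 sums (SD, n = 4) on the same scale. AST5 of hippocampus 2, with 2 cells, was not summed.

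Naaa, the lysosomal amidase that breaks down palmitoylethanolamide, was at 975.1, 960.2, 769.9 and 853.1 CPM against 586.2, 550.4, 482.04 and 483.7 CPM. In AST1 it was counted in 72.6% to 84.2% of cells of a suspension, and in the others in 47.5% to 68.6%. Against AST2 and AST3 cells only, the value of Naaa was 1.34 where it was 0.76 ± 0.10 against all others; AST4 sums held 1110 and 1120 CPM.

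The study's own table of AST1 markers holds 37 genes, all of which were tested here. Of these, 6 were called (among them Hsd11b1, Fam213a, Id3, Selenop and Naaa), 31 were higher in 4 of 4 suspensions and 2, Cd9 and Tmbim6, in only 2. Of all genes 0.185% were called higher and 10.4% were higher in 4 of 4. This list was chosen on the same cells, so its direction is not independent evidence. Its median log2 fold change was 0.59 within suspensions, and 0.60 when all cells were pooled over the regions. For single genes the 2 ways of counting differed. Gfap was higher by 1.45 pooled and by 0.70 within suspensions, Cd38 by 1.15 and by 0.27 ± 0.15, and Nnat by 1.10 and by 0.75 ± 0.27. Id3 moved the other way, from 0.83 pooled to 1.40 within suspensions, and its hippocampal sums were below its cortical ones in AST1 (-0.54 on the log2 scale) and in the other astrocytes (-0.87).

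**Figure D3:**
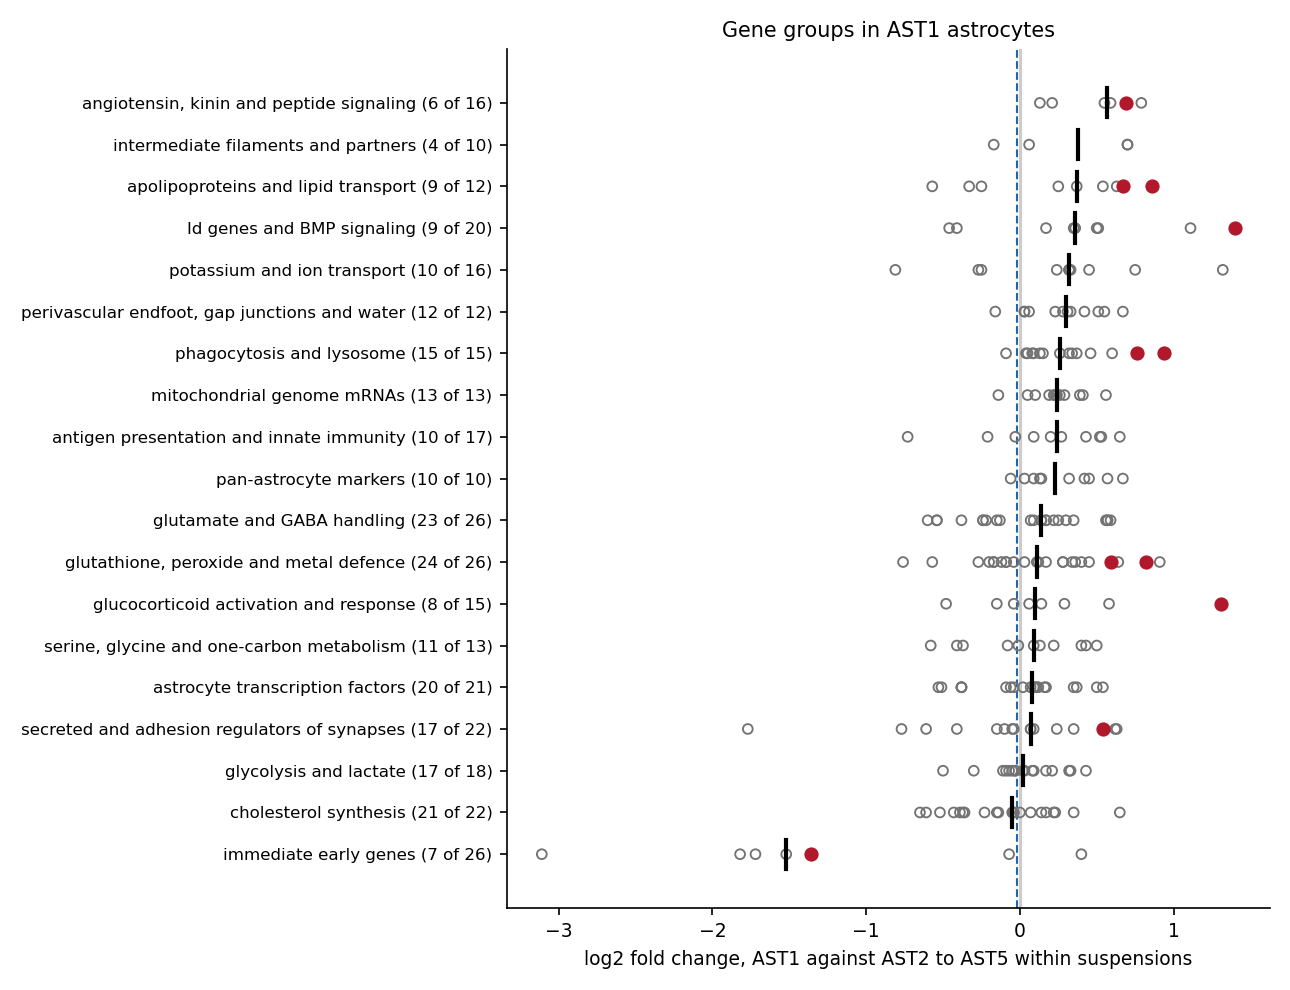
Log2 fold change of AST1 against AST2 to AST5 within suspensions (horizontal axis) for the tested members of 19 gene groups with at least 4 members tested (rows, with the number tested of the number listed). Red filled circles are called genes, black bars the group medians and the dashed line the median of all genes tested (-0.02); immediate early genes had the lowest median, -1.52, and angiotensin, kinin and peptide signaling the highest, 0.57.

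Of the Id genes, which BMP signaling induces, Id3 alone was called, where 0.185% of all genes were called higher. Of 20 listed genes of Id and BMP signaling 9 were tested, and 4 were higher in 4 of 4 suspensions, where 10.4% of all genes were. Those were Id1, Id2, Id3 and Id4. Id1 was at 146.2, 144.4, 90 and 73.6 CPM in AST1 against 47.7, 42.9, 51.8 and 61.5 CPM, without overlap, and was not called (1.11 ± 0.30). In hippocampus 2 it was counted in 16.8% of AST1 cells and in 17.5% of the others. Id2 (0.35) and Id4 (0.50) had smaller values and were not called, and Id2 ran from -0.07 to 0.47 over the alternative settings. The BMP receptor genes Bmpr1b (0.36), Bmpr1a (0.51) and Bmpr2 (0.17) and the ligand gene Bmp7 (-0.46) were not called, and Chrdl1, which encodes a BMP antagonist, was at -0.41. The median of the list was 0.36.

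Of the glucocorticoid list 8 of 15 genes were tested, and the enzyme gene Hsd11b1 was the sole call, where 0.185% of all genes were called higher. The receptor gene Nr3c1 had a log2 fold change of -0.04 and the glucocorticoid-induced genes Tsc22d3, Nfkbia and Per1 had -0.15, 0.58 and 0.14. The list median was 0.10. In the peptide list 1 of 6 tested genes was called (Cpe), 5 were higher in 4 of 4 suspensions, beside 10.4% of all genes, and the median was 0.57. Its members include Ntsr2, a neurotensin receptor gene of astrocytes (0.55 ± 0.08), and Scg3, a granin gene (0.59); neither was called.

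Defence against peroxide and metal had 24 of 26 genes tested, with 2 called higher, where 0.185% of all genes were. They were Selenop (0.59 ± 0.08), the plasma selenium carrier, and Fam213a. On the scale of single-subtype sums Selenop was at 2564 ± 148.3 CPM in AST1, 2004 ± 369.7 CPM in AST2 and 2177 ± 488.95 CPM in AST3 (SD, n = 4 each). It was at 234.9 ± 57.4 CPM in AST4 (SD, n = 2) and 1694 ± 910.2 CPM in AST5 (SD, n = 3). Another member, the microsomal glutathione transferase gene Mgst1, was at 89.4, 104.3, 200.7 and 222.03 CPM in AST1 against 45.6, 48.8, 99.7 and 152.1 CPM, and was not called (0.91 ± 0.18). The peroxiredoxin gene Prdx6 (0.34) and the glutathione transferase gene Gstm1 (0.28) lay closer to the median of the list, 0.11, and turned to -0.05 and -0.07 at the lowest over the alternative settings. In the list of lysosomal and phagocytosis genes, all 15 were tested, 2 were called higher (Cst3 and Naaa) and 7 were higher in 4 of 4 suspensions, against 0.185% and 10.4% of all genes. The phagocytosis receptor genes Mertk (-0.09), Axl (0.09) and Megf10 (0.15) were not called. Apolipoproteins and lipid transport had 9 of 12 genes tested and 2 called higher, Apoe and Clu, beside the same 0.185% of all genes.

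No gene of the endfoot or pan-astrocyte lists was called, though many had higher values in AST1. Of 12 endfoot, gap junction and water channel genes 6 were higher in 4 of 4 suspensions, where 10.4% of all genes were, and the median was 0.30. Aqp4, the water channel gene of endfeet, came nearest to a call (edgeR adjusted p = 0.0524). It was at 1868, 2365, 2129 and 1944 CPM against 1397, 1460, 1134 and 1229 CPM, a difference of 0.67 ± 0.10. The glutamate transporter genes Slc1a2 and Slc1a3 had 0.57 ± 0.09 and 0.14 ± 0.05, and neither was called. The values of Aqp4 and Slc1a2 were above those of the called genes Sparcl1 (0.54) and Gpm6a (0.50). All 10 pan-astrocyte markers were tested, and 7 were higher in 4 of 4 suspensions. Their summed level was 45089 to 47892 CPM in AST1 and 41461 to 44148 CPM in the others. Both groups had been sorted with an antibody against ATP1B2, whose gene is in this list, and typed as astrocytes on these counts. The summed level is thus no test of their identity. No gene was called among 23 tested genes of glutamate and GABA handling (median 0.14), 17 of glycolysis (0.02), 21 of cholesterol synthesis (-0.05), 11 of serine and one-carbon metabolism (0.09), 20 astrocyte transcription factors (0.08) or 10 of ion transport (0.32). In the last list the potassium channel genes ran both ways, from 1.32 for Kcnk2 to -0.81 for Kcnj16, neither of them called. Of 13 mRNAs of the mitochondrial genome none was called, and 10 were higher in 4 of 4 suspensions, against the same 10.4% of all genes (median 0.24). The 100 most abundant genes tested had a median of 0.25. The medians of the mitochondrial (0.24), pan-astrocyte (0.23) and endfoot (0.30) lists were near it, so they do not mark out these lists. The share higher in 4 of 4 suspensions among abundant genes alone is not given.

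Few reactive astrocyte genes were abundant enough to be tested. Of 14 listed genes, Gfap and Vim were tested and neither was called. Vim, another intermediate filament gene, was at 85 and 167.4 CPM in cortical AST1 against 26.5 and 29.4 CPM, and at 99.5 and 92 CPM in hippocampal AST1 against 149.9 and 154.2 CPM. It was thus the higher value in cortex and the lower one in hippocampus. Of 17 genes of antigen presentation and innate immunity, 10 were tested and none called (median 0.24).

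Most of the immediate early genes tested had lower values in AST1. They are transcribed within minutes of a stimulus, and tissue dissociation is a known trigger. Of 26 listed genes 7 were tested and 1, Ccn1, was called lower, where 0.0309% of all genes were; 5 were lower in 4 of 4 suspensions, where 8.53% of all genes were, and the median was -1.52. Over the 24 genes of the list found in the sums, the summed level was 630.6, 528.3, 407.3 and 495.6 CPM in AST1 of cortex 1, cortex 2, hippocampus 1 and hippocampus 2, against 1656, 1291, 1843 and 2537 CPM. AST1 was thus the lower group in every suspension.

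The 5 genes lower throughout were Fos, Jun, Dusp1, Btg2 and Ccn1. Fos, which encodes a subunit of the AP-1 transcription factor, was at 51.4, 90.6, 32.7 and 57.4 CPM in AST1 and at 377.03, 258.3, 588.1 and 787.9 CPM in the others. The groups did not overlap, yet the spread of the ratio was wide and Fos was not called (-3.11 ± 0.49). It was called under 7 of 12 alternative settings. Dusp1, a phosphatase gene that ends MAP kinase signaling, was at 57.4, 165.4, 102.03 and 116.6 CPM against 332.3, 279.6, 407.7 and 451.4 CPM (-1.82 ± 0.27, not called). Jun was at 72.6 to 116.99 CPM against 169.03 to 310.4 CPM, and Btg2, an antiproliferative gene, at 28.5 to 53.6 CPM against 97.5 to 183.9 CPM. Dusp1 and Jun were each called under 6 of 13 alternative settings and Btg2 under 3 of 12. Ccn1, which encodes a secreted matricellular protein, was at 172.9, 98.7, 128.1 and 159.6 CPM against 388.2, 376.7, 251.9 and 414.2 CPM and was called (-1.36 ± 0.18), as under 7 of 13 alternative settings. Few cells carried Fos. A count was present in 12.3%, 7.27%, 7.01% and 12% of AST1 cells, against 20%, 18.7%, 24.6% and 28.6% of the others, and in 68.7% of mural cells. The AST1 sums thus drew their Fos counts from 7, 4, 19 and 33 cells. Klf6 (-0.07) and Jund (0.40), the other tested members, were not called.

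**Figure D4:**
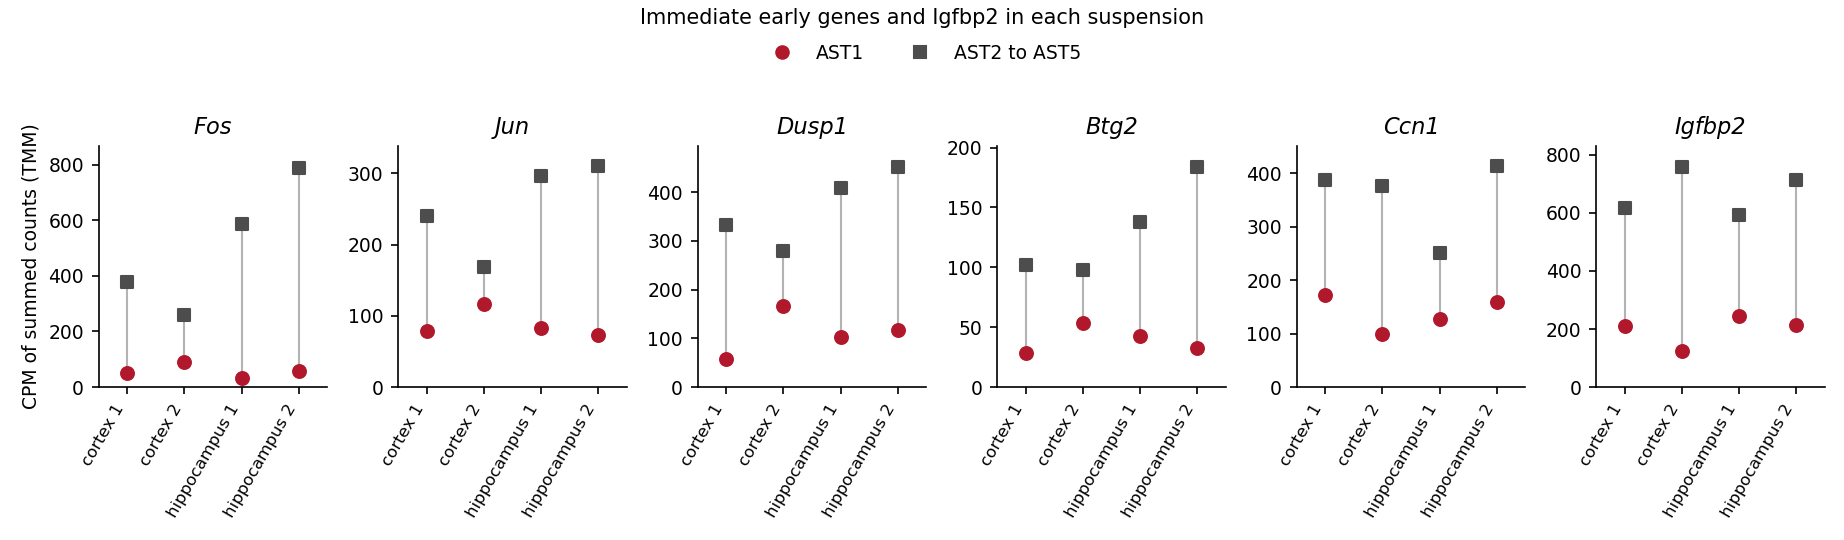
CPM of summed counts (vertical axis, TMM scaling, from 0) of 5 immediate early genes and Igfbp2 in each suspension (horizontal axis). Red circles are AST1 and dark squares AST2 to AST5; every circle lies below its square, and AST1 held 32.7 to 90.6 CPM of Fos where the others held 258.3 to 787.9 CPM.

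The promoters of these genes are shown because all 5 genes had lower values in 4 of 4 suspensions. The windows run from 250 bases before to 50 bases after the start of the gene (RefSeq, GRCm38.p6), 5′ to 3′ on the strand of the gene. Capitals mark TGACG on either strand, the core of the element bound by CREB and ATF factors; the whole palindrome is TGACGTCA, which holds TGACG on both strands. TGACG was found in 4 of the 5 windows and in 20.8% of 32851 promoter windows of 300 bases, and TGACGTCA in 2, Btg2 and Dusp1, and in 1.79% of all windows. The Jun window holds neither and is not printed. A match is a description of the letters only. The windows lie at chr12:85473640-85473939 on the plus strand (Fos), and on the minus strand at chr17:26508423-26508722 (Dusp1), chr1:134079106-134079405 (Btg2) and chr3:145649936-145650235 (Ccn1).
Fos: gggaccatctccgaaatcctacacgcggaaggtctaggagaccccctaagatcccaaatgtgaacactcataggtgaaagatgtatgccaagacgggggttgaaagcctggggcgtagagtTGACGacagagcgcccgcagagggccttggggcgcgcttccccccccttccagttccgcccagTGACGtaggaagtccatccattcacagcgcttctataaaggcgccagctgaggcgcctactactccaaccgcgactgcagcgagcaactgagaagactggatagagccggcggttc
Dusp1: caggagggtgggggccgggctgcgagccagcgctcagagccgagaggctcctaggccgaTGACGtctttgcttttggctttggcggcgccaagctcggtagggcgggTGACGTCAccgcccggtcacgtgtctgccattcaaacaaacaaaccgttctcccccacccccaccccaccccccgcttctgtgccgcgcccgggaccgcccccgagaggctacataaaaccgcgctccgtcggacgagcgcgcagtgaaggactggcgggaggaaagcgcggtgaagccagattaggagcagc
Btg2: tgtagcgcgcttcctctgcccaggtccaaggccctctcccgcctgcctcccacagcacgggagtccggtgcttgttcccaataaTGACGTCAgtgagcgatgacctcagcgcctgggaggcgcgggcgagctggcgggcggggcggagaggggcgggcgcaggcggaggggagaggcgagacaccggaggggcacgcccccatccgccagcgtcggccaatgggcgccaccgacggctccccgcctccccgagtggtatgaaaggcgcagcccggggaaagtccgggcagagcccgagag
Ccn1: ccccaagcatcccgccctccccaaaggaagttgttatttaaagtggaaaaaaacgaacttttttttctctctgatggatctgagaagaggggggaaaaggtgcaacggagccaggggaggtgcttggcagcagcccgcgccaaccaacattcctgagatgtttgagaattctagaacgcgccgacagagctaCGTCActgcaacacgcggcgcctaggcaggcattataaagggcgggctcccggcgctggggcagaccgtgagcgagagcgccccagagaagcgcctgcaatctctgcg

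Igfbp2, which encodes a binding protein of insulin-like growth factors, was the other called gene on the low side. It lies at chr1:72824503-72852474 and was at 210.8, 122.6, 243.8 and 214.01 CPM in AST1 against 617.3, 758.8, 591.5 and 714.7 CPM. The groups were far apart (-1.80 ± 0.22), and the gene was called under 9 of 13 alternative settings. It was counted in 19.3%, 20%, 31% and 32.8% of AST1 cells and in 70%, 75.9%, 59.8% and 63.6% of the other astrocytes, and was higher in AST1 on 1 of 32 plates. Spon1 (-1.77), a secreted adhesion protein gene in the list of synapse regulators, was lower in 4 of 4 suspensions and was not called. In that list 17 of 22 genes were tested and Sparcl1 was the sole call, where 0.185% of all genes were called higher and 0.0309% lower. Of the 17, 5 were higher and 3 lower in 4 of 4 suspensions, against 10.4% and 8.53% of all genes.

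AST2 and AST3 were the other subtypes with at least 5 cells in every suspension, and each was set against AST1 alone. The levels that follow are CPM over sums of single subtypes. Both comparisons share the AST1 sums. Against AST3, 6 genes were called (0.0926% of 6482): Cst3 (0.85 ± 0.06) and Hsd11b1 (1.27 ± 0.10) higher in AST1, and Fos (-3.45 ± 0.23), Igfbp2 (-2.03 ± 0.17), the muscle glycogen phosphorylase gene Pygm (-1.07 ± 0.13) and the adhesion molecule gene Kirrel2 (-1.31 ± 0.16) lower. Against AST2 no gene was called by edgeR (0% of 6482), with 5.03% at an unadjusted p under 0.05; DESeq2 called 4.98% in the same design. The AST2 sums of hippocampus rest on 10 and 22 cells.

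Of the immediate early genes, Fos, Ccn1, Btg2, Jun and Dusp1 are given by subtype. Fos was at 55 and 96.9 CPM in cortical AST1, at 57.4 and 29.2 CPM in cortical AST2 and at 785.5 and 671.7 CPM in cortical AST3. In hippocampus it was at 35.3 and 61.6 CPM in AST1, at 320.8 and 340.97 CPM in AST2, at 562.1 and 544.02 CPM in AST3 and at 941.01 and 1622 CPM in AST4. AST1 and AST2 thus overlapped for Fos in cortex and not in hippocampus, while AST1 was below AST3 in every suspension. Ccn1 was lower in AST1 than in AST2 of the same suspension in all 4, at 184.9, 105.5, 138.1 and 171.2 CPM in AST1 and at 273.95, 274.4, 210.5 and 461.97 CPM in AST2. The AST3 sums held 383.7 to 633.3 CPM of it, and the AST4 sums 140.7 and 598.5 CPM. The AST5 sums, at 16.6 ± 28.7 CPM (SD, n = 3), were below AST1. Btg2, Jun and Dusp1 overlapped between AST1 and AST2. Btg2 was at 30.5, 57.4, 46.2 and 34.9 CPM in AST1 and at 66.6, 44.9, 33.1 and 38.2 CPM in AST2. Jun was at 84.9, 125.1, 89.2 and 77.9 CPM in AST1 and at 119.6, 86, 182.7 and 65.1 CPM in AST2. Dusp1 was at 61.4, 176.8, 109.99 and 125.1 CPM in AST1 and at 188.2, 148.01, 410.5 and 204.5 CPM in AST2. It was higher in AST1 in cortex 2 and lower in the other suspensions. Whether AST1 differed more from AST3 than from AST2 was not tested. Igfbp2 was low in AST1 against both, at 131.1 to 262.8 CPM where AST2 held 705.7 to 1327 CPM and AST3 624.05 to 1095 CPM. The low level of Igfbp2 was shared with AST4 (124.6 ± 176.2 CPM, SD, n = 2) and AST5 (200.9 ± 149.5 CPM, SD, n = 3), beside 212.2 ± 56.6 CPM in AST1 (SD, n = 4).

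Agt did not set AST1 apart from AST3. It was at 572.6, 539.5, 1118 and 1142 CPM in AST1 and at 411.7, 348.5, 1530 and 1234 CPM in AST3, higher in AST1 in both cortical suspensions and lower in both hippocampal ones (0.13 ± 0.18). Gfap was higher in AST1 than in AST3 in 4 of 4 suspensions, at 268.2, 518.01, 1433 and 1299 CPM against 186.01, 242.5, 676.6 and 573.4 CPM (0.97 ± 0.14, not called). AST4, a hippocampal group measured in 2 sums of 41 and 48 cells, was above hippocampal AST1 for Gfap, at 2267 and 2162 CPM. Id3 was higher in AST1 than in AST3 (1.12 ± 0.22) and AST2 (2.36 ± 0.45), and was not called in either comparison.

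AST1 made up 12.4% and 11% of the astrocytes of the cortical suspensions and 69% and 64% of those of hippocampus. The Wilson 95% intervals were 9.67% to 15.7%, 8.57% to 14.1%, 64.2% to 73.3% and 59.4% to 68.4%; they cover counting error only. The 33 cells missing from the list copy were all of cortex 1, of 541 cells there, and are not in its share. With 2 suspensions per region the exact two-sided permutation test gave p = 0.333, the smallest it can give. Each suspension was sorted onto 8 plates. The share of AST1 ran from 5% to 21.7% over the plates of cortex 1, from 7.69% to 14.7% over those of cortex 2, from 53.8% to 73.2% in hippocampus 1 and from 54.7% to 75% in hippocampus 2, so plates of the 2 regions did not overlap.

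Within AST1, hippocampus and cortex can be compared on cells that share the same label. The edgeR quasi-likelihood test called no gene among 6482 (0%), with 494 genes at an unadjusted p under 0.05, where the design has 2 residual degrees of freedom. DESeq2 called 2.04% of genes, and edgeR called 7.61% without cortex 1 and 2.90% without cortex 2, each on a single cortical sum. Gfap was higher in hippocampal AST1 by 1.80 ± 0.32 (adjusted p = 0.543), Agt by 1.02 ± 0.12 (adjusted p = 0.23) and Hsd11b1 by 1.02 ± 0.15 (adjusted p = 0.401), while Id3 was at -0.53 ± 0.16 (adjusted p = 0.575). None of these passed the threshold.

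Whether AST1 differed from its neighbours unequally in the 2 regions was tested with an interaction term, which called 2 genes (0.0309% of 6482). Sparc, which encodes a matricellular protein that counters Sparcl1 at synapses, was at 286.4 and 212.02 CPM in cortical AST1 against 92.4 and 82.5 CPM, and at 408.4 and 493.1 CPM in hippocampal AST1 against 845.1 and 967.2 CPM. It was thus higher in AST1 in both cortical suspensions and lower in both hippocampal ones (interaction -2.51 ± 0.21, edgeR adjusted p = 0.0284). The hippocampal comparison group held AST4, whose sums had 1558 and 1687 CPM of Sparc. With AST3 alone as the comparison the interaction was -1.81 and was not called (adjusted p = 0.17), at 121.3, 111.1, 651.3 and 856.9 CPM in AST3. Without hippocampus 1 it was -2.47 (adjusted p = 0.309) and without hippocampus 2 it was -2.55 (adjusted p = 0.255).

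The other gene was Olig2, a transcription factor gene of the oligodendrocyte lineage that some astrocytes also express. Cortical AST1 had 0 counts of it in the 57 cells of cortex 1 and 1 count in 1 of the 55 cells of cortex 2. A count was present in 24 AST1 cells of hippocampus 1 and in 32 of hippocampus 2. The other astrocytes were at 44.5, 45.8, 93.3 and 96.5 CPM and AST1 of hippocampus at 29.7 and 43 CPM, so AST1 was lower in all 4 suspensions. The call (edgeR adjusted p = 0.0284) rests on the near absence in cortical AST1, and the fitted size has no meaning beside so few counts. With AST3 alone as the comparison the adjusted p was 0.134, without hippocampus 1 it was 0.309 and without hippocampus 2 it was 0.255.

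Fewer genes were detected in AST1 cells than in their neighbours. The median number of genes detected per cell was 2089, 1801, 1969 and 2004 in AST1 of cortex 1, cortex 2, hippocampus 1 and hippocampus 2, against 2318, 2195, 2156 and 2258. AST1 was the lower group in 4 of 4 suspensions, with a mean difference of -266.2 ± 89.6 genes (SD, n = 4; exact sign-flip test, two-sided, p = 0.125, the smallest that 4 suspensions can give). After thinning each cell to 50000 counts it was still lower in 4 of 4, at 1646, 1426, 1539 and 1568 genes against 1822, 1732, 1676 and 1760. The 50 most abundant genes of a cell took 30.95%, 33.33%, 32.99% and 33.82% of its gene counts in AST1 and 28.06%, 28.48%, 29% and 29.42% in the others. Gene counts relative to ERCC RNAs, synthetic standards that every well received alike, were lower by 0.208 ± 0.0806 on the log2 scale (n = 4, lower in 4 of 4, exact p = 0.125). Reads outside annotated exons went in opposite directions in the 2 regions. In cortex they were 10.99% and 10.59% of AST1 reads against 12.89% and 11.89%, and in hippocampus 13.22% and 12.95% against 11.71% and 12.12%. The mean difference over the 4 suspensions was -0.217 points (exact sign-flip test, p = 0.875). That test does not address the difference between the regions.

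**Figure D5:**
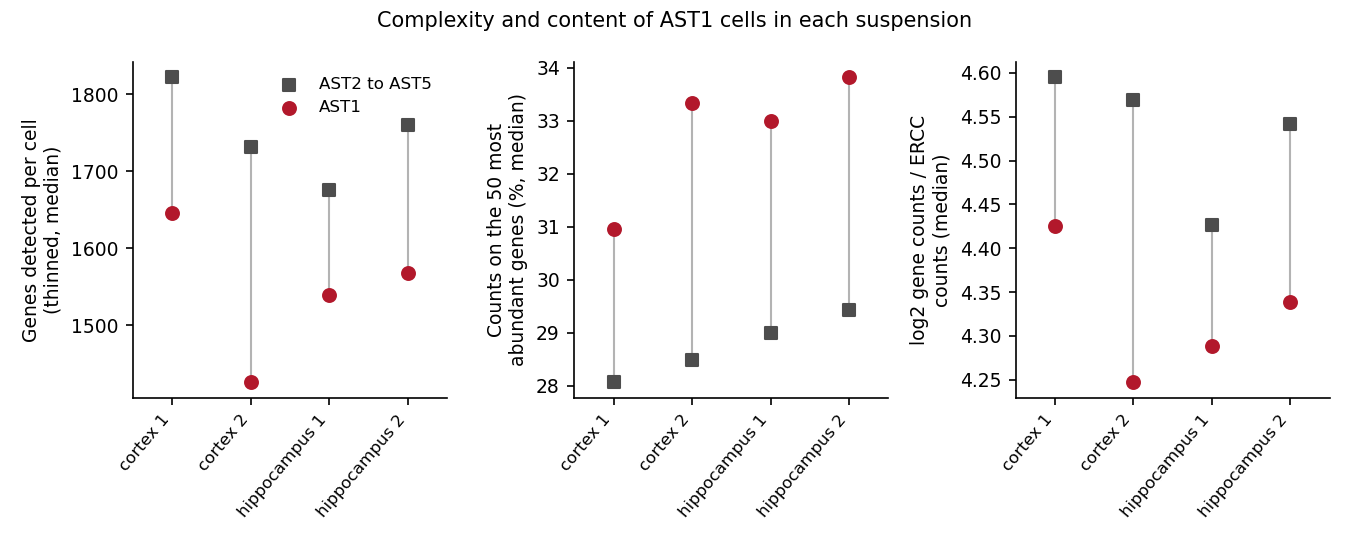
Medians over cells in each suspension (horizontal axis) of genes detected after thinning to 50000 counts, the percent of gene counts on the 50 most abundant genes of a cell and the log2 ratio of gene to ERCC counts (vertical axes, none starting at 0). Red circles are AST1 and dark squares AST2 to AST5; AST1 was lower in every suspension in the left and right panels and higher in every suspension in the middle one.

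The genes called higher in AST1 were mostly abundant ones. Of the 12 genes called higher, 11 were in the top of 5 equal classes of mean abundance. The median log2 fold change was -0.05, -0.08, -0.06, -0.02 and 0.06 from the lowest to the highest class, and 0.25 over the 100 most abundant genes. The part of lower complexity in the calls was not tested.

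Markers of other cell types were summed in AST1 and in the other astrocytes. Over 4 microglial markers AST1 was at 24.5, 58.2, 26.9 and 49.6 CPM against 17.5, 10.2, 11.9 and 18.3 CPM in the others, higher in 4 of 4 suspensions, with no marker at 0. The sums of 6 endothelial markers were 0.116 to 14.8 CPM in AST1, with Slco1a4 at 0, and 2.68 to 12.8 CPM in the others. Sums of 5 neuronal markers were 3.03 to 9.79 CPM against 9.86 to 39.6 CPM, with Rbfox3 at 0 in AST1. The sums of 7 mural markers were 116.8 to 128.6 CPM against 101.4 to 171.2 CPM. Those of 6 oligodendrocytic markers were 290.5 to 554.2 CPM against 396.2 to 518.6 CPM, with Mag at 0 in AST1. Ependymal genes (4) were at 19.1 to 32.3 CPM against 18.8 to 48.5 CPM, with Ccdc153 and Tmem212 at 0. The part of microglial RNA in the AST1 values was not tested. The 9 neural stem cell genes that mark AST4 were at 402.5 to 814.8 CPM in AST1 and at 497.01 to 1371 CPM in the others, with Nes at 0.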

How the data were processed

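Single cells of mouse cortex and hippocampus were profiled with Smart-seq2. Per the labels and the study's methods, the authors mapped reads to GRCm38 with STAR and used HTSeq to obtain the deposited raw counts, which are not normalized; ERCC and unassigned reads stayed out of library sizes. Sums per suspension, the replicate, were compared in edgeR 4.0.16 (quasi-likelihood, robust, TMM) with suspension as the replicate block, because both sums of a suspension hold the same animals. Genes had to pass edgeR's low-count filter and have a count in 10% of typed astrocytes. DESeq2 1.42.0 and limma 3.58.1 were alternatives; code ran in R 4.3.3 and Python 3.11.15 and was checked on simulated counts. Suspension ratios used CPM plus 0.5. Cells were typed by the study; 33 missing from the list copy and 15 without a type entered no comparison. Intervals and floors cover counting error only. The intervals rest on numbers of cells and leave out variation between suspensions. PCR reads carry no molecular tags, so reads are not counts of molecules. Samples labelled as separate suspensions were the replicates.

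The members, lists and tests were chosen with earlier results of these data known. Named genes are the 5 markers, called genes with a mean of at least 20 CPM (up to 10 per direction), up to 4 of the most abundant members and any called member of each list, and the leading genes of the study's AST1 table. Other list members, Olig2 and Sparc were named after their values were seen. The values of 1 called gene are not reported here. Older symbols were matched through RefSeq synonyms. The authors' table of all counts was not used, nor were the comparison values in their supplementary tables.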

Additional observations from a re-analysis of the deposited data

Results flagged for a closer look

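The ratio of AST1 to the other astrocytes for Apoe stood apart in 1 suspension. On the log2 scale it was 0.80 in cortex 2 and 0.63, 0.64 and 0.61 in cortex 1, hippocampus 1 and hippocampus 2, so the gap from cortex 2 to the next value was 0.874 of the whole range. Of 23 groups of values examined in this way 1 stood apart, where chance gives about 1 in 20. Most groups held 4 suspensions, and those of the AST1 share held the 8 plates of a suspension. The AST1 contrast of Sparc differed between regions by -2.51 on the log2 scale (hippocampus minus cortex), by the interaction test. The same test gave 11.18 for Olig2, a size that rests on 0 and 1 counts in the cortical AST1 sums.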

How the results depend on the processing

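The number of genes called depended on the setting. For AST1 against the other astrocytes 0.216% of genes were called, and DESeq2 called 1.33%, the low-count filter alone 0.00627%, detection in 25% of astrocytes 1.29%, cells thinned to 50000 counts 0.37%, and the fit with no replicate block and a region term 0.478%. Against AST2, with 0 called, these settings gave 4.98%, 0.0139%, 0.467%, 0.0463% and 0.201% in the same order, and against AST3, with 0.0926% called, 1.8%, 0, 1.44%, 0.231% and 0.293%. For hippocampus against cortex within AST1, with 0 called, DESeq2 called 2.04%, detection in 25% of astrocytes 0.0779%, and the replicate block by suspension number 0.0154%; suspension numbers mark no animal shared between regions. The interaction called 0.0309%, and 0 with AST3 cells only. Leaving out 1 suspension at a time gave 0.0309% to 0.201% against the other astrocytes, 0 to 0.0154% against AST2, 0.0154% to 0.123% against AST3, 0 to 7.61% for region and 0 to 7.42% for the interaction. Region calls were 7.61% without cortex 1 and 2.9% without cortex 2, interaction calls 7.42% and 3.1%, and 0 without either hippocampal suspension; these fits assume that the lone sum varies like the others. Against AST3 the share was 0.0154% without hippocampus 1 or hippocampus 2. Reads outside exons turned from -0.217 to 0.653 points as means over cells, 0.346 without cortex 1 and 0.144 without cortex 2 (range -0.79 to 0.346). Over the same omissions the regional difference in share was 52.3 to 57.3 points, genes detected -292 to -224, the log2 gene to ERCC ratio -0.232 to -0.17 and cells with Gfap and Agt 6.42 to 11.7 points. Of the genes called, Cpe turned, to -0.02 with other subtypes weighted equally (limma); genes not called that crossed 0 include Id2, Prdx6 and Gstm1. The causes were not tested. With 4 suspensions no sign-flip test can go below 0.125, and PCR reads without molecular tags limit the precision of low genes.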
